A study of Homo sapiens with 8 samples.

Results

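Kinesins are motor proteins that use ATP to move along microtubules or to take them apart. RNA of the kinesin family was followed in SUM159 cells, a human cell line from a triple-negative breast cancer, across the gene-level tables of the series. Members were the genes whose symbol begins with KIF followed by a number or by C, without the kinesin-binding protein KIFBP and without hyphenated antisense names, which gave 45 of 60595 listed genes. Of these 45, 41 were protein-coding and 4 were pseudogenes in RefSeq. KIF23, which belongs to the mitotic kinesins, was not listed under that symbol and is absent from all counts. The compared groups were shFoxO1 cells in 10 uM olaparib, shCon cells in 10 uM olaparib and shCon cells in DMSO, each held for 3 days. Olaparib inhibits the DNA repair enzymes PARP1 and PARP2, DMSO is its solvent, shFoxO1 is a short hairpin RNA against the transcription factor FOXO1 and shCon is the control hairpin that the other groups carry. A group of shFoxO1 cells in DMSO was not analysed here, so the hairpin was compared under the drug alone. The number and sequence of the hairpins are not given in the sources used here.

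Kinesins fall into broad roles. Mitotic kinesins build the bipolar spindle, align and separate chromosomes and finish the division of the cell, and their RNA is made mainly in late S phase, G2 and mitosis. Transport kinesins carry vesicles, mitochondria and protein complexes towards the cell edge throughout the cycle, with light chains and adaptors that choose the cargo. A few members work in cilia or in signalling.

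Many genes of mitosis carry a short promoter element, the cell cycle genes homology region (CHR), often with CCAAT boxes bound by NF-Y upstream. Among the complexes that bind the CHR is DREAM, which keeps such genes silent outside the dividing phases. The promoters of the 9 mitotic kinesins that were called higher with olaparib are shown because these genes moved together and 8 of them hold that element near the start. RefSeq windows of GRCh38.p14, 250 bases before and 50 from the start on, matched 33 of the 45 members by symbol, with 42 windows. Below, 150 bases of each around the start are printed 5′ to 3′ on the strand of the gene, and capitals mark each CHR match (TTTGAA or TTCGAA, either strand) and each CCAAT box (CCAAT, either strand). The stretches lie at chr10:92593010-92593159 (plus strand) for KIF11, chr1:200620722-200620871 (minus strand) for KIF14, chr3:44761674-44761823 (plus strand) for KIF15, chr11:28108127-28108276 (minus strand) for KIF18A, chr17:44947744-44947893 (minus strand) for KIF18B, chr5:138178992-138179141 (plus strand) for KIF20A, chr10:89701470-89701619 (plus strand) for KIF20B, chrX:70289984-70290133 (plus strand) for KIF4A and chr6:33391703-33391852 (plus strand) for KIFC1.
KIF11: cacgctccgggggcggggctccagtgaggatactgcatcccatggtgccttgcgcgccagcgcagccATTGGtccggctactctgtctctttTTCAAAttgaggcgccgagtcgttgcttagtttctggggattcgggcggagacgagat
KIF14: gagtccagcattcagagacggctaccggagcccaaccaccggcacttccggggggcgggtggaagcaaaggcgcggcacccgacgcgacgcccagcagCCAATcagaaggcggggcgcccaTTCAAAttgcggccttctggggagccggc
KIF15: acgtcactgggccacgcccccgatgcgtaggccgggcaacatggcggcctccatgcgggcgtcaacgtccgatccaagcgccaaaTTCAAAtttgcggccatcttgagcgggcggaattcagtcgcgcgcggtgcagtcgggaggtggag
KIF18A: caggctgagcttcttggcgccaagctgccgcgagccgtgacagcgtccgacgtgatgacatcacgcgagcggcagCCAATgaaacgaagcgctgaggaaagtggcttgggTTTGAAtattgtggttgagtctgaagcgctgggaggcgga
KIF18B: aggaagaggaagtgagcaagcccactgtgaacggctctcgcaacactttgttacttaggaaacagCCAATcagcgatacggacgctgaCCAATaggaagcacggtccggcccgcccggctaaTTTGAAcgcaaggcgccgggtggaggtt
KIF20A: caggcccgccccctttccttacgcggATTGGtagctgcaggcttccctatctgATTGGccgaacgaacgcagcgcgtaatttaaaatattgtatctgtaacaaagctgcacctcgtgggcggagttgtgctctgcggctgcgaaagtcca
KIF20B: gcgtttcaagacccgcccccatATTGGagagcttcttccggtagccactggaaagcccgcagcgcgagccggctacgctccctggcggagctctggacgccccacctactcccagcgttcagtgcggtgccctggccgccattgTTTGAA
KIF4A: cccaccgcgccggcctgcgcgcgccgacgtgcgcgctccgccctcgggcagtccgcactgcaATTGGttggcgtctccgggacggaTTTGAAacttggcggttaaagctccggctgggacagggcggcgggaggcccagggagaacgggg
KIFC1: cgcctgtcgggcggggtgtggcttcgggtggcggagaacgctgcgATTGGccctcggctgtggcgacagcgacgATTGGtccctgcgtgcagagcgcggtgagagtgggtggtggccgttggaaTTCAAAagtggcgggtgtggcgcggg

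A CHR match was found in 12 of 16 windows of mitotic kinesins (75%), in 1 of 17 windows of transport kinesins (5.88%) and in 0 of 9 windows of ciliary and other kinesins, against 16.4% of all 35116 windows and 12.0% of the windows of genes tested with olaparib. The 12 windows belong to 11 of 15 mitotic genes, since both KIF22 windows hold the same match. In 11 of the 16 mitotic windows (68.8%) the match began within 40 bases of the start, against 4.32% of all windows, a distance chosen after the positions were seen. CCAAT boxes were in 11 of 16 mitotic windows (68.8%), 5 of 17 transport windows (29.4%) and 34.6% of all windows. The CHR and CCAAT letters do not overlap each other. KIF15 held the single E2F match among mitotic windows (TTTCCCGC, TTTGGCGC, TTTGCCGC or TTTCGCGC, either strand), directly before its CHR match and against 3.31% of all windows. The FOXO letters GTAAACA, on either strand, were in 0 of 42 kinesin windows and in 3.42% of all windows. A match is a run of letters in a window and not a measured binding site.

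**Figure D1:**
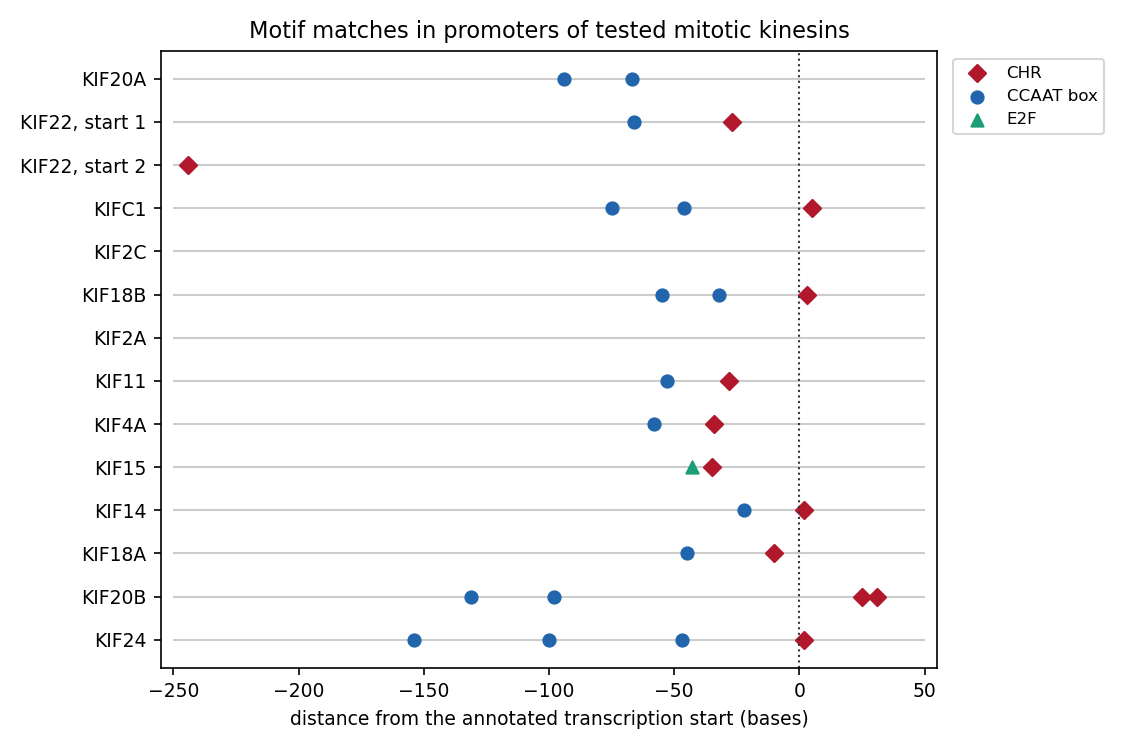
First base of each CHR, CCAAT and E2F match (symbols) in the RefSeq promoter windows of the 13 tested mitotic kinesins, as distance in bases from the annotated transcription start (dotted line), with 1 line per window. Outside the second KIF22 window CHR matches lie close to the start, with CCAAT boxes upstream of them except in KIF15, while KIF20A holds CCAAT boxes alone and KIF2A and KIF2C hold no match.

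Levels are given as FPKM, fragments scaled by transcript length and library total, which allows genes to be set beside each other per length. The tables hold a single value for a gene in each group, which leaves the spread of libraries and the depth unknown, and calls are those of q at most 0.05 in the authors' deposited table. Whether the 2 libraries of a group were separate cultures is not stated, and the spread behind the calls may be technical. FOXO1 was at 17.5 FPKM in shFoxO1 cells against 89.2 FPKM in shCon cells under olaparib, the direction the hairpin label names. The mesenchymal markers VIM, CD44, ZEB1 and FN1 were between 7.89 and 2487 FPKM in every group. With the hairpin VIM was called lower, at 1656 FPKM in shFoxO1 cells and 2487 FPKM in shCon cells. FN1 was called higher, at 559 FPKM in shFoxO1 cells and 379 FPKM in shCon cells, and CD44 and ZEB1 were not called. The epithelial markers CDH1, EPCAM and ESR1 were at or below 0.0880 FPKM. Of leukocyte markers, 3 (LYZ, CD3D, MS4A1) had 0 FPKM listed throughout, and PTPRC reached 1.34 FPKM and CD14 0.865 FPKM in DMSO. Of endothelial markers, CDH5 and VWF were at most 0.0198 FPKM, and PECAM1 was called higher with the hairpin, at 1.80 FPKM in shFoxO1 cells and 0.0937 FPKM in shCon cells. Of neuron markers, RBFOX3 was at most 0.149 FPKM. SNAP25 was called higher with olaparib, at 3.90 FPKM in olaparib and 1.197 FPKM in DMSO, and TUBB3 lower, at 56.4 FPKM in olaparib and 85.6 FPKM in DMSO. MAP2 was called higher with the hairpin, at 67.0 FPKM in shFoxO1 cells and 41.8 FPKM in shCon cells. The part of these markers in the kinesin values was not tested.

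The authors tested 30 of the 45 kinesins in at least 1 table. Of the 15 tested in neither, 9 were listed at 0 in all groups, among them KIF1A, KIF12, KIF19, KIF25 and all 4 pseudogenes, and the other 6 (KIF4B, KIF6, KIF13A, KIF17, KIF21B and KIF26A) reached at most 0.511 FPKM. KIF4B is an intronless, near-identical copy of KIF4A, and reads may have been divided between them. The authors' test left out genes of low level, so the counts below describe tested members only, and KIF26B entered the second table with 1.10 FPKM in shFoxO1 cells. KIF5A and KIF5C were tested at 0.950 and 0.951 FPKM in shCon olaparib cells and were lower in the other groups. Genes that enter a test through their higher group can add to the calls in that direction. Of the 30 tested genes, 22 shared their listed region with a further gene, and how reads of overlapping genes were divided is not stated.

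Mitotic motors had the largest summed level of the 3 roles in every group. KIF20A, the motor that brings the Aurora B complex to the central spindle, ranked 10 of 45 in shFoxO1 olaparib cells at 12.0 FPKM (on the scale of the first table), 1 of 45 in shCon olaparib cells at 75.1 FPKM and 5 of 45 in shCon DMSO cells at 27.7 FPKM. KIFC3, a motor that walks towards microtubule minus ends and is known from cell junctions, led in shFoxO1 olaparib cells at 38.0 FPKM, ranked 9 in shCon olaparib cells at 22.7 FPKM and led in shCon DMSO cells at 72.5 FPKM. KIF22, a chromokinesin that pushes chromosome arms away from the poles, was next to the top in both shCon groups, at 65.3 FPKM in olaparib and 65.7 FPKM in DMSO. KIF5B, the conventional kinesin of most tissues, lay between 26.1 and 35.4 FPKM in the 3 groups. With 1 value per group, no spread is at hand to say which neighbours in these orders differ.

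**Figure D2:**
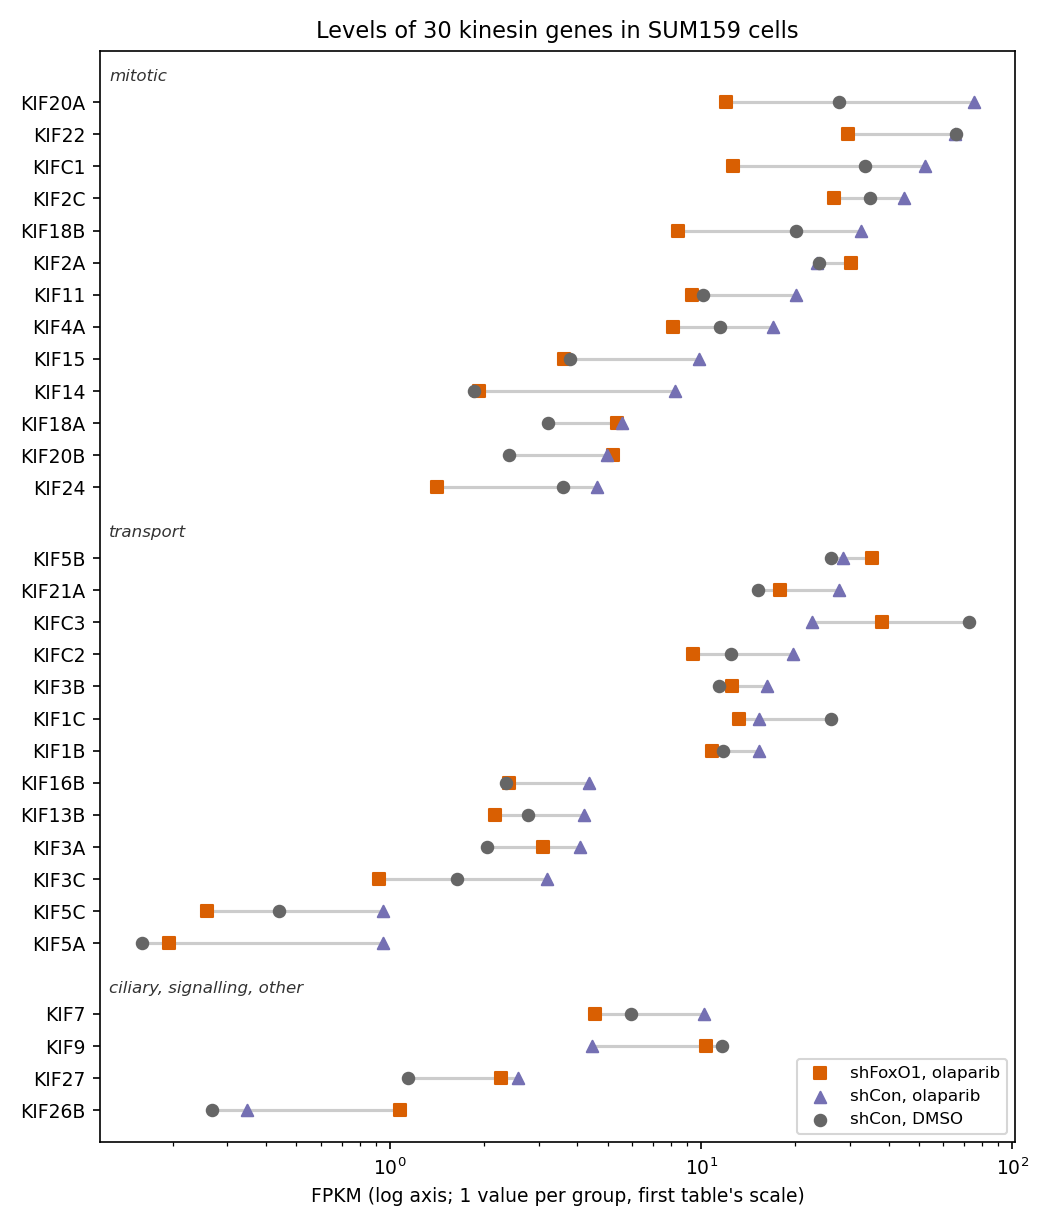
FPKM (log axis) of the 30 tested kinesin genes in shFoxO1 olaparib, shCon olaparib and shCon DMSO cells, with the shFoxO1 values on the first table's scale and 1 value per group, grouped by role and ordered by the shCon olaparib level. For most mitotic genes the shCon olaparib triangle lies to the right of the other symbols, while KIFC3, KIF1C, KIF9 and, by a small margin, KIF22 have their highest value in DMSO.

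The first comparison asked what olaparib changed in shCon cells. Most tested kinesins were called higher, in the mitotic and in the transport class. With every listed gene in the adjustment this no longer held for the transport class, where KIF1B, KIF3A, KIF3C and KIF5C lost their higher calls. Of 29 tested members 20 were called higher and 2 lower, against 15.6% of all tested genes called higher and 23.1% called lower. The kinesin shares were 69.0% and 6.90%. The median log2 ratio was 0.69 over tested kinesins and -0.07 over all 14841 tested genes. Of the 20 higher calls, 7 were of genes that changed at least 2-fold, KIF5A and KIF5C among them. With a mean of at least 1 FPKM, which leaves out KIF5A and KIF5C, 18 were called higher and 2 lower. No share of all tested genes was taken at that floor.

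Among mitotic kinesins 9 of 13 tested members rose, none fell and 4 were not called, with a median log2 ratio of 0.69. KIF14, which acts in cytokinesis together with citron kinase, was at 8.21 FPKM in olaparib and 1.86 FPKM in DMSO, a 4.41-fold rise. KIF20A was at 75.1 FPKM in olaparib and 27.7 FPKM in DMSO, a 2.71-fold rise. KIF15, which can stand in for KIF11 in holding spindle poles apart, was at 9.81 FPKM in olaparib and 3.78 FPKM in DMSO, a 2.60-fold rise. These 3 genes, with KIF11, KIF18B and KIF20B, held the smallest q of the authors' deposited table (0.000284). That floor was shared by 2610 of the 14841 tested genes.

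The spindle pole motor KIF11, also known as Eg5, was at 20.1 FPKM in olaparib and 10.2 FPKM in DMSO. KIF20B, a motor of the late midbody and a relative of KIF20A, was at 4.97 FPKM in olaparib and 2.41 FPKM in DMSO. Both genes thus rose by close to 1 on the log2 scale (0.98 and 1.04). Smaller rises were seen in both members of the pair that dampens microtubule plus ends, KIF18A, at 5.58 FPKM in olaparib and 3.22 FPKM in DMSO, and KIF18B, at 32.6 FPKM in olaparib and 20.2 FPKM in DMSO. KIFC1, a minus-end motor that clusters surplus centrosomes in cancer cells, was at 52.2 FPKM in olaparib and 33.6 FPKM in DMSO. The chromokinesin KIF4A was at 17.0 FPKM in olaparib and 11.4 FPKM in DMSO (q = 0.0129 in the authors' deposited table, 0.0527 when every listed gene enters the adjustment).

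The mitotic members without a call were KIF22, both microtubule depolymerisers of the KIF2 branch and the centriole motor KIF24. KIF2C (MCAK), which corrects faulty kinetochore attachments, was at 44.9 FPKM in olaparib and 34.7 FPKM in DMSO (q = 0.622 in the authors' deposited table). KIF2A was at 23.5 FPKM in olaparib and 23.8 FPKM in DMSO, and KIF24 at 4.61 FPKM in olaparib and 3.60 FPKM in DMSO. KIF22 differed by -0.01 on the log2 scale. KIF2A and KIF2C are also the tested mitotic members with neither a CHR match nor a CCAAT box in the RefSeq window, whereas the windows of KIF22 and KIF24 hold a CHR match.

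Among transport kinesins 9 of 13 tested members rose and 2 fell, with a median log2 ratio of 0.66. KIF21A, which restrains microtubule growth at the cell cortex, was at 27.8 FPKM in olaparib and 15.2 FPKM in DMSO, a 1.83-fold rise. KIF16B, a motor of early endosomes, was at 4.36 FPKM in olaparib and 2.36 FPKM in DMSO, and KIFC2 at 19.7 FPKM in olaparib and 12.5 FPKM in DMSO. All members of the KIF3 branch, which drives transport along cilia, rose: KIF3A to 4.07 FPKM in olaparib against 2.05 FPKM in DMSO, KIF3B to 16.3 FPKM in olaparib against 11.4 FPKM in DMSO, and KIF3C to 3.20 FPKM in olaparib against 1.65 FPKM in DMSO. The calls of KIF3A and KIF3C were lost with every listed gene in the adjustment (q = 0.0882 and 0.119 from the p-values of the authors' deposited table).

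Close relatives are set side by side here, with no test of a difference between them. In the conventional kinesin branch the widespread KIF5B was not called, at 28.5 FPKM in olaparib and 26.1 FPKM in DMSO. The relatives best known from neurons rose at low level, KIF5A to 0.950 FPKM in olaparib against 0.159 FPKM in DMSO and KIF5C to 0.951 FPKM in olaparib against 0.440 FPKM in DMSO, the KIF5C call lost with every listed gene in the adjustment (q = 0.153 from the p-values of the authors' deposited table). With a pseudocount of 1 FPKM the log2 ratios of these low genes shrank to 0.75 for KIF5A and 0.44 for KIF5C, where they had been 2.58 and 1.11. KIF1B, known for carrying mitochondria and synaptic vesicle parts, was at 15.3 FPKM in olaparib and 11.7 FPKM in DMSO, a higher call, while KIF1C, which carries vesicles and integrins, was at 15.3 FPKM in olaparib and 26.0 FPKM in DMSO, a lower call. Neither the KIF1B nor the KIF1C call held with every listed gene in the adjustment (q = 0.187 and 0.140 from the p-values of the authors' deposited table). KIF13B missed the threshold, at 4.20 FPKM in olaparib and 2.77 FPKM in DMSO (q = 0.0518 in the authors' deposited table).

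KIFC3 fell most of all tested kinesins, to 22.7 FPKM in olaparib against 72.5 FPKM in DMSO, 3.20-fold lower (-1.68 on the log2 scale, with q = 0.000284 by the authors' deposited table). Because of this gene the summed FPKM of transport kinesins was lower in olaparib than in DMSO, 164 against 186 FPKM, although most members rose. Without KIFC3 the sums were 141 FPKM in olaparib and 113 FPKM in DMSO. The mitotic sum was 364 FPKM in olaparib and 242 FPKM in DMSO.

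Of the ciliary and signalling members 2 of 3 tested rose. KIF7, which regulates Hedgehog signalling at the tip of the cilium, was at 10.2 FPKM in olaparib and 5.94 FPKM in DMSO. KIF27 was at 2.58 FPKM in olaparib and 1.14 FPKM in DMSO. KIF9, a motor of motile cilia, was at 4.45 FPKM in olaparib and 11.7 FPKM in DMSO and was not called in spite of a log2 ratio of -1.39 (q = 0.125 in the authors' deposited table). KIF9 is listed in the same region as KLHL18 and the antisense RNA KIF9-AS1, which was at 2.04 FPKM in olaparib and 1.13 FPKM in DMSO, not called.

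**Figure D3:**
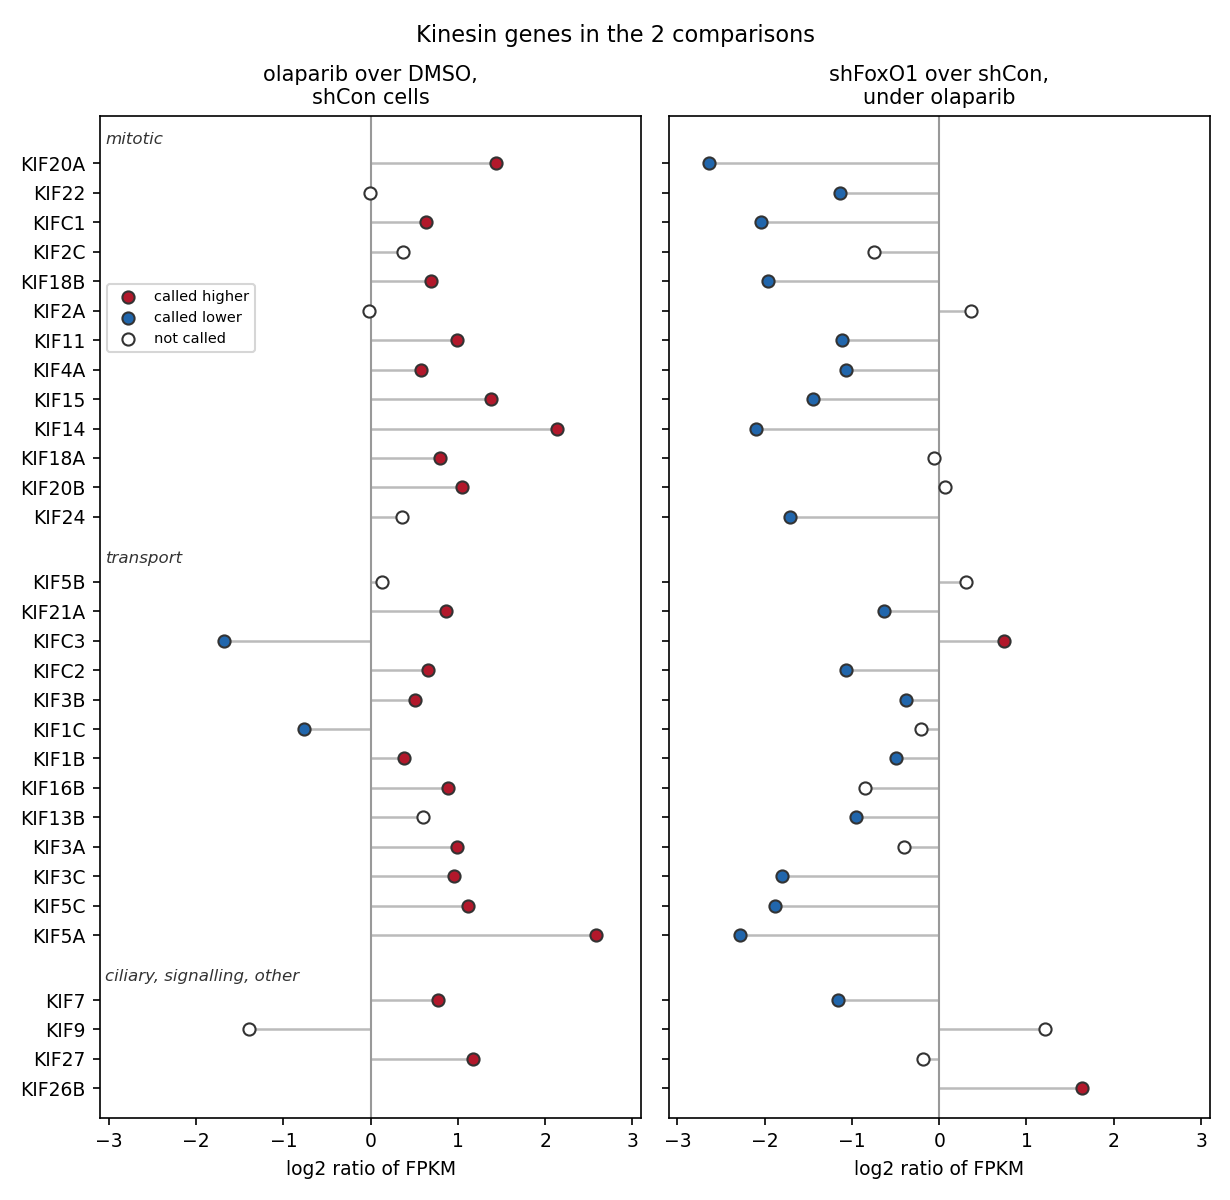
Log2 ratio of FPKM for each tested kinesin gene, with olaparib over DMSO in shCon cells in the left panel and shFoxO1 over shCon under olaparib in the right panel. Red points were called higher and blue points lower in the authors' deposited tables, and white points were not called. In the left panel the called points lie above 0 except KIFC3 and KIF1C, and in the right panel they lie below 0 except KIFC3 and KIF26B.

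The second comparison asked what the FOXO1 hairpin changed under olaparib. Most tested mitotic kinesins and most tested transport kinesins were called lower, and KIFC3 rose. With every listed gene in the adjustment KIF1B and KIF3B lost their calls, and lower calls no longer covered most transport members. Of 30 tested members 18 were called lower and 2 higher, against 19.8% of all tested genes called lower and 22.6% called higher. The kinesin shares were 60% and 6.67%. The median log2 ratio was -0.90 over tested kinesins and 0.01 over all 14660 tested genes. The shCon olaparib libraries serve in both comparisons, as the upper group of the first and the baseline of the second, so opposite signs in them are not independent.

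Among mitotic kinesins 9 of 13 tested members fell, none rose and 4 were not called, with a median log2 ratio of -1.14. KIF20A had the largest decrease, to 12.2 FPKM in shFoxO1 cells against 76.4 FPKM in shCon cells, a 6.24-fold fall. KIF14 was at 1.96 FPKM in shFoxO1 cells and 8.36 FPKM in shCon cells, a 4.27-fold fall. KIFC1 was at 12.9 FPKM in shFoxO1 cells and 53.1 FPKM in shCon cells, a 4.13-fold fall. These genes, KIF4A, KIF11, KIF15, KIF18B, KIF22, KIF3C and KIF7 held the smallest q of the authors' deposited table (0.000244). That floor was shared by 3001 of the 14660 tested genes.

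KIF18B was at 8.54 FPKM in shFoxO1 cells and 33.2 FPKM in shCon cells. Its relative KIF18A was not called, at 5.46 FPKM in shFoxO1 cells and 5.68 FPKM in shCon cells (q = 0.850 in the authors' deposited table). The same held for KIF20B, the relative of KIF20A, at 5.31 FPKM in shFoxO1 cells and 5.06 FPKM in shCon cells (q = 0.795 in the authors' deposited table). In both pairs 1 member thus fell more than 3-fold and the other was nearly level, a difference between relatives that was not itself tested. KIF18A, KIF18B and KIF20B carry CHR matches in the printed promoters, and KIF20A does not. Of the 9 mitotic genes called lower with the hairpin, 8 hold a CHR match, beside 11 of all 15 mitotic genes. A link between the match and the fall was not tested.

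KIF11 was at 9.49 FPKM in shFoxO1 cells and 20.5 FPKM in shCon cells. KIF15 was at 3.68 FPKM in shFoxO1 cells and 9.99 FPKM in shCon cells, and KIF4A at 8.26 FPKM in shFoxO1 cells and 17.3 FPKM in shCon cells. Each of these spindle motors was thus called lower with the hairpin, KIF15 the most at 2.72-fold. KIF22, which had not been called with olaparib, was at 30.2 FPKM in shFoxO1 cells and 66.4 FPKM in shCon cells, a fall. KIF24, also not called with olaparib, was at 1.43 FPKM in shFoxO1 cells and 4.69 FPKM in shCon cells (q = 0.0165 in the authors' deposited table, 0.0681 when every listed gene enters the adjustment). Both tested members of the KIF2 branch were again without a call. KIF2A was at 30.9 FPKM in shFoxO1 cells and 23.9 FPKM in shCon cells. KIF2C was at 27.2 FPKM in shFoxO1 cells and 45.7 FPKM in shCon cells.

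Among transport kinesins 8 of 13 tested members fell and 1 rose, with a median log2 ratio of -0.64. KIF3C was at 0.935 FPKM in shFoxO1 cells and 3.26 FPKM in shCon cells, a 3.49-fold fall, and KIFC2 at 9.55 FPKM in shFoxO1 cells and 20.0 FPKM in shCon cells. KIF21A was at 18.2 FPKM in shFoxO1 cells and 28.3 FPKM in shCon cells, and KIF13B at 2.21 FPKM in shFoxO1 cells and 4.27 FPKM in shCon cells, falls of 0.64 and 0.95 on the log2 scale. KIF5A, at 0.199 FPKM in shFoxO1 cells and 0.966 FPKM in shCon cells, and KIF5C, at 0.262 FPKM in shFoxO1 cells and 0.968 FPKM in shCon cells, fell at low level. With a pseudocount of 1 FPKM the log2 ratio was -1.14 for KIF3C in place of -1.80, -0.71 for KIF5A in place of -2.28 and -0.64 for KIF5C in place of -1.89. The abundant KIF5B was not called, at 36.0 FPKM in shFoxO1 cells and 29.1 FPKM in shCon cells (q = 0.0920 in the authors' deposited table).

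Falls of KIF1B, at 11.0 FPKM in shFoxO1 cells and 15.6 FPKM in shCon cells, and of KIF3B, at 12.8 FPKM in shFoxO1 cells and 16.6 FPKM in shCon cells, were small. Their calls were lost with every listed gene in the adjustment (q = 0.0906 and 0.172 from the p-values of the authors' deposited table). KIF3A was not called, at 3.14 FPKM in shFoxO1 cells and 4.15 FPKM in shCon cells, and neither was KIF16B, at 2.45 FPKM in shFoxO1 cells and 4.44 FPKM in shCon cells (q = 0.0553 in the authors' deposited table). KIF1C was at 13.5 FPKM in shFoxO1 cells and 15.6 FPKM in shCon cells, not called. KIFC3 rose to 38.7 FPKM in shFoxO1 cells against 23.0 FPKM in shCon cells, a 1.68-fold rise (q = 0.00231 in the authors' deposited table).

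Of the ciliary and signalling members KIF7 fell, to 4.63 FPKM in shFoxO1 cells against 10.3 FPKM in shCon cells. KIF26B, a kinesin known from kidney development in the mouse, rose to 1.10 FPKM in shFoxO1 cells against 0.353 FPKM in shCon cells (q = 0.000462 in the authors' deposited table), with a log2 ratio of 1.64, or 0.63 with a pseudocount of 1 FPKM. KIF9 was at 10.5 FPKM in shFoxO1 cells and 4.53 FPKM in shCon cells and KIF27 at 2.30 FPKM in shFoxO1 cells and 2.63 FPKM in shCon cells, neither called. The antisense KIF9-AS1 was at 1.09 FPKM in shFoxO1 cells and 2.07 FPKM in shCon cells, not called.

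No table sets shFoxO1 cells in olaparib against shCon cells in DMSO, so these values stand side by side on the first table's scale with no test. For 28 kinesins with at least 1 FPKM in a group and above 0 in both groups compared, the median log2 ratio was -0.15. It was -0.06 over 14888 genes tested in at least 1 comparison and above 0 in both groups, with no FPKM floor. For the 13 tested mitotic kinesins it was -0.38. By value, 9 of these 13 (69.2%) were lower in shFoxO1 olaparib cells, beside 53.5% of the 14888 genes, and 4 were higher. More than 2-fold lower were 5 of the 13 (38.5%), beside 10.5% of the 14888 genes. These were KIFC1, at 12.6 FPKM in shFoxO1 olaparib cells and 33.6 FPKM in shCon DMSO cells, KIF20A, KIF18B, at 8.40 FPKM in shFoxO1 olaparib cells and 20.2 FPKM in shCon DMSO cells, KIF22, at 29.7 FPKM in shFoxO1 olaparib cells and 65.7 FPKM in shCon DMSO cells, and KIF24, at 1.41 FPKM in shFoxO1 olaparib cells and 3.60 FPKM in shCon DMSO cells. KIF11, at 9.33 FPKM in shFoxO1 olaparib cells and 10.2 FPKM in shCon DMSO cells, KIF14, at 1.92 FPKM in shFoxO1 olaparib cells and 1.86 FPKM in shCon DMSO cells, and KIF15, at 3.61 FPKM in shFoxO1 olaparib cells and 3.78 FPKM in shCon DMSO cells, had the closest values. KIF18A, at 5.37 FPKM in shFoxO1 olaparib cells and 3.22 FPKM in shCon DMSO cells, and KIF20B, at 5.22 FPKM in shFoxO1 olaparib cells and 2.41 FPKM in shCon DMSO cells, were higher by value.

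The mitotic sum was 155 FPKM in shFoxO1 olaparib cells, 364 FPKM in shCon olaparib cells and 242 FPKM in shCon DMSO cells. As a share of the summed kinesin FPKM, mitotic members made up 48.4%, 66.7% and 54.2% in these groups. The transport sums lay closer together, at 147, 164 and 186 FPKM. KIFC3 moved against most other members, and without it the transport sums were 109, 141 and 113 FPKM in these groups.

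**Figure D4:**
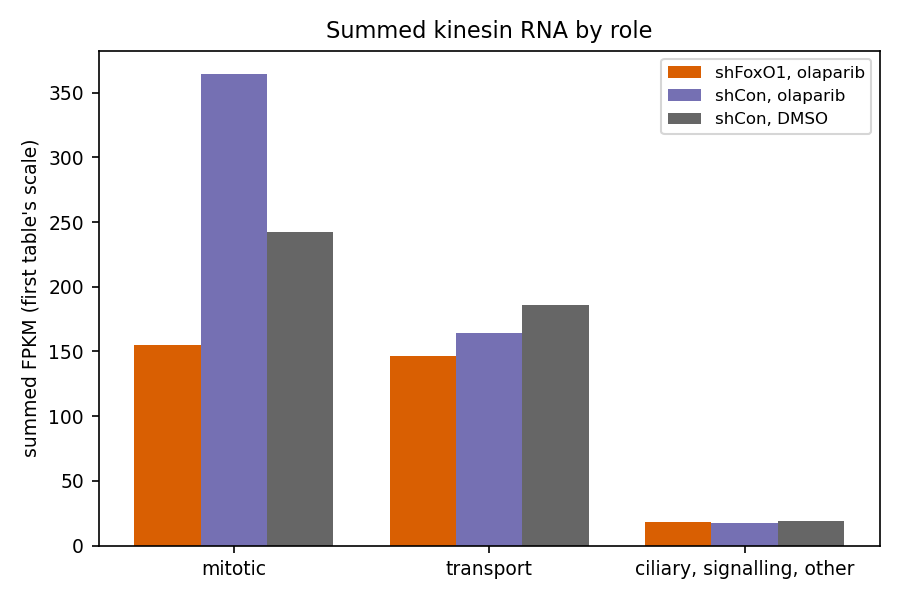
Summed FPKM (first table's scale) of mitotic, transport and other kinesins in shFoxO1 olaparib, shCon olaparib and shCon DMSO cells, with 1 bar per group and no error bar since each group has 1 value. The mitotic bars differ most, at 155, 364 and 242 FPKM.

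Both markers of dividing cells that were read, MKI67 and TOP2A, moved in the direction of most mitotic kinesins. MKI67, the Ki-67 antigen, was at 42.4 FPKM in olaparib and 13.2 FPKM in DMSO, and at 7.89 FPKM in shFoxO1 cells and 43.1 FPKM in shCon cells. TOP2A, the topoisomerase of dividing cells, was at 151 FPKM in olaparib and 39.3 FPKM in DMSO, and at 38.2 FPKM in shFoxO1 cells and 153 FPKM in shCon cells. All 4 differences were called. In bulk RNA a change in the share of cells in G2 and mitosis and a change of RNA per cell cannot be told apart, and the part of either in the kinesin values was not tested.

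RNAs of proteins that work with mitotic kinesins were listed in the same tables. Of 11 mitotic partners 6 rose and none fell with olaparib (54.5% higher, beside 15.6% of all tested genes, and a median log2 ratio of 0.52). With shFoxO1, 8 fell and none rose (72.7% lower, beside 19.8% of all tested genes, and a median of -0.80). CENPE, a kinetochore kinesin by sequence that lacks a KIF symbol, was at 6.49 FPKM in olaparib and 1.57 FPKM in DMSO, and at 2.05 FPKM in shFoxO1 cells and 6.62 FPKM in shCon cells. HMMR, a spindle assembly factor, was at 49.7 FPKM in olaparib and 12.2 FPKM in DMSO, and at 11.7 FPKM in shFoxO1 cells and 50.6 FPKM in shCon cells. Both genes were called in both comparisons. With olaparib 5 partners were not called, namely TPX2, AURKB, INCENP, PRC1 and NUMA1. TPX2 was nearly level, at 76.4 FPKM in olaparib and 74.8 FPKM in DMSO. It was called lower with the hairpin, at 53.4 FPKM in shFoxO1 cells and 77.8 FPKM in shCon cells.

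Of the Aurora B complex that KIF20A carries, BIRC5 was at 90.5 FPKM in olaparib and 63.2 FPKM in DMSO and CDCA8 at 37.5 FPKM in olaparib and 24.9 FPKM in DMSO, both called. AURKB itself, at 34.1 FPKM in olaparib and 39.1 FPKM in DMSO, and INCENP, at 27.9 FPKM in olaparib and 18.5 FPKM in DMSO, were not called. With the hairpin all 4 subunits fell. BIRC5 was at 20.0 FPKM in shFoxO1 cells and 92.1 FPKM in shCon cells, CDCA8 at 14.6 FPKM in shFoxO1 cells and 38.2 FPKM in shCon cells, AURKB at 19.9 FPKM in shFoxO1 cells and 34.7 FPKM in shCon cells and INCENP at 12.7 FPKM in shFoxO1 cells and 28.4 FPKM in shCon cells. PRC1, the bundling protein to which KIF4A binds, was called in neither comparison, at 21.9 FPKM in olaparib and 29.6 FPKM in DMSO, and at 24.8 FPKM in shFoxO1 cells and 22.3 FPKM in shCon cells.

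The light chains and cargo adaptors of transport kinesins followed. Of 11 tested, none rose and 3 fell with olaparib (27.3% lower, near the 23.1% of all tested genes, and a median log2 ratio of -0.36). With shFoxO1, 4 rose and none fell (36.4% higher, beside 22.6% of all tested genes, and a median of 0.15). KLC2, a light chain of the conventional kinesin, fell to 18.2 FPKM in olaparib against 37.9 FPKM in DMSO. TRAK1, which links the motor to mitochondria, was at 5.72 FPKM in olaparib and 9.07 FPKM in DMSO, and at 8.52 FPKM in shFoxO1 cells and 5.82 FPKM in shCon cells, both called. The mitochondrial receptor RHOT1 rose to 26.2 FPKM in shFoxO1 cells against 14.5 FPKM in shCon cells. KIFAP3, the non-motor subunit of the KIF3 complex, rose to 9.37 FPKM in shFoxO1 cells against 5.67 FPKM in shCon cells, and was not called with olaparib, at 5.57 FPKM in olaparib and 7.14 FPKM in DMSO.

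Cytoplasmic dynein, the motor of the opposite direction, served for comparison. Of 11 tested subunits and regulators, 1 rose and 2 fell with olaparib (9.09% and 18.2%, beside 15.6% and 23.1% of all tested genes, and a median log2 ratio of -0.01). With shFoxO1, 2 rose and 1 fell (18.2% and 9.09%, beside 22.6% and 19.8% of all tested genes, and a median of 0.25). The heavy chain DYNC1H1 was not called, at 174 FPKM in olaparib and 193 FPKM in DMSO, and at 198 FPKM in shFoxO1 cells and 177 FPKM in shCon cells. The light chain DYNLL2 was called in both, at 23.0 FPKM in olaparib and 14.2 FPKM in DMSO and at 9.93 FPKM in shFoxO1 cells and 23.4 FPKM in shCon cells. DYNLT1, another light chain, went the other way, at 122 FPKM in olaparib and 176 FPKM in DMSO and at 262 FPKM in shFoxO1 cells and 124 FPKM in shCon cells, also called in both. Differences between these lists and the kinesins were not tested. Wherever a count of 0 calls in a direction is given for the mitotic kinesins, their partners or the adaptors, the count at an unadjusted p under 0.05 in the authors' deposited table was also 0, and no other tool could be run on 1 value per group.

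**Figure D5:**
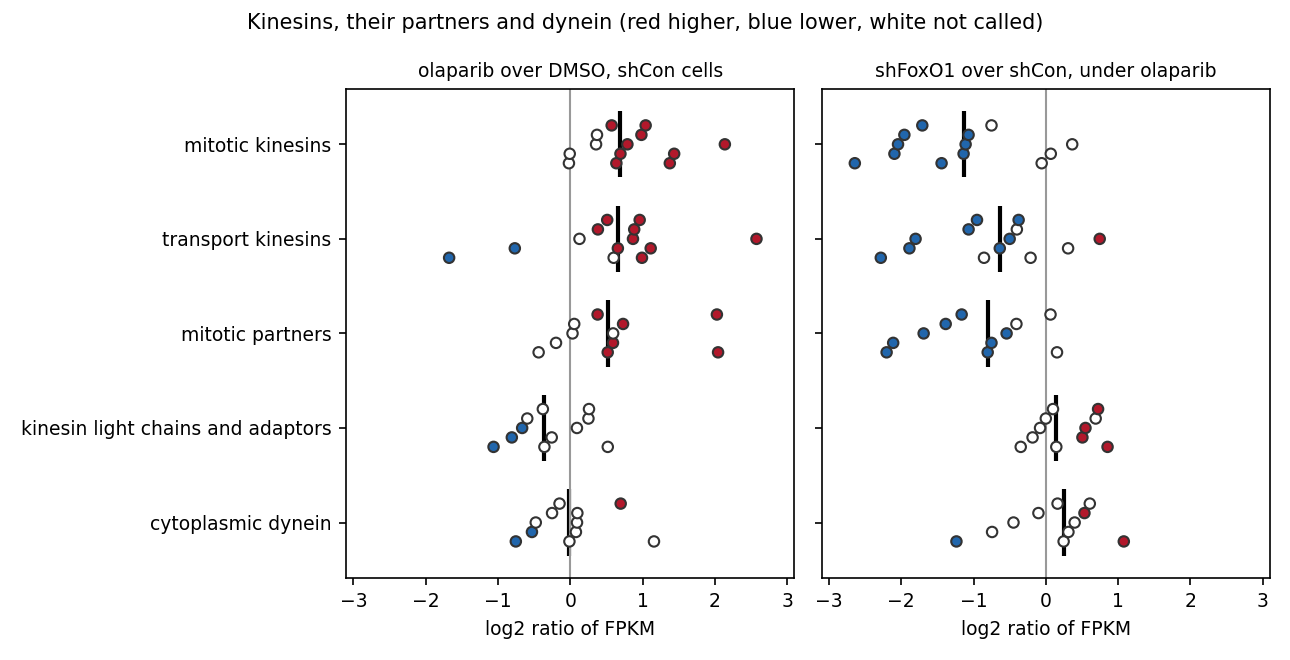
Log2 ratio of FPKM for tested members of each list, with olaparib over DMSO in shCon cells on the left and shFoxO1 over shCon under olaparib on the right. Each point is a gene (red called higher, blue called lower, white not called) and black bars are medians. Kinesin and mitotic partner medians lie above 0 on the left and below 0 on the right, while adaptor medians are -0.36 and 0.15 and dynein medians -0.01 and 0.25.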

How the data were processed

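The labels list 8 libraries in 4 groups of 2, and the deposited values cover 3 of these groups in 2 tables. The submitters' processing notes name CASAVA 1.4, HISAT2 2.1.0, Cufflinks 2.2.1 and the hg38 build, with no role or setting. The authors deposited 1 value per gene and group, read here as FPKM from the table layout, with their p-value and q-value and a test status. Both libraries of a group are not stated to have entered its value, and 0 columns of other samples were found. A gene was called where the authors' deposited q-value, over all genes they tested, was at most 0.05. Their smallest p was 5e-05, so genes at that value cannot be ranked by p. The tables were used in Python 3.11.15 (pandas 2.3.3, numpy 2.4.6). Log2 ratios were taken from FPKM with no pseudocount. To set the groups of both tables side by side, values of the second were divided by 1.017, the median ratio of the shared shCon olaparib group over 13688 genes of at least 1 FPKM (1.015 at the 1st and 1.019 at the 99th percentile). The log2 ratio, quantile normalization and adjustment steps were checked on simulated data.

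Members were taken by symbol, leaving out KIFBP (here under its older symbol KIF1BP) and hyphenated names. The members and the lists by role were chosen with earlier results of these data known. Values are given in full for kinesins called in a comparison with at least 1 FPKM in a group. The same holds for kinesins of at least 10 FPKM in a group. Partners, adaptors and dynein genes enter the counts of their lists, but values are given for only some of them. These and the other genes named were chosen after their values were seen. Promoter windows are those of RefSeq, GRCh38.p14, the same build as hg38. Alternatives were a q of 0.01, adjustment with every listed gene entered, an FPKM floor, a 2-fold minimum, pseudocounts of 0.1 and 1, quantile normalization and centring.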

Additional observations from a re-analysis of the deposited data

How the results depend on the processing

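No paired analysis was possible because each group has 1 deposited value, and for the same reason no library could be left out in turn. Of 59 tests of a member in a comparison 42 gave a call, and none of these 42 turned direction after quantile normalization. Among those without a call, 3 log2 ratios changed sign after quantile normalization, to 0.36 for KIF22 and 0.20 for KIF2A with olaparib and to 0.057 for KIF27 with shFoxO1. A pseudocount added to both groups cannot turn a direction, so only the size of the fold was read with it. A pseudocount of 1 FPKM moved the fold by over 1.5 times in 6 of the 42, all given beside their genes. When the adjustment ran over every gene listed, 9 of the 42 lost their call, those of KIF1B, KIF1C, KIF3A, KIF3C, KIF4A and KIF5C with olaparib and of KIF1B, KIF3B and KIF24 with shFoxO1. Asking for a 2-fold change as well left 7 kinesins higher and 1 lower with olaparib, in place of 20 and 2, and 1 higher with shFoxO1 in place of 2. The count lower with olaparib was 1 at a q of 0.01 and 1 with every listed gene entered, and the count higher with shFoxO1 was 1 for genes of at least 1 FPKM on average. Medians that moved by more than 0.1 on the log2 scale were that of mitotic kinesins after quantile normalization (0.90 with olaparib and -1.35 with shFoxO1) and that of tested kinesins with shFoxO1 under a pseudocount of 1 FPKM (-0.68). The cause was not tested. The other counts and medians kept within 1.5 times or 0.1 of the values given. Depth is unknown, so no limit of detection can be set for the members listed at 0.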
